A study of Homo sapiens with 24 samples.

Results

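The genes described here are 9 neural crest specifiers outside the PAX and TFAP2 families: FOXD3, SOX8, SOX9, SOX10, SNAI1, SNAI2, TWIST1, ETS1 and NGFR. They were chosen by symbol, with earlier results of these data known, and all 9 were found among the 61551 genes of the count table. RNA was sequenced from H9 human embryonic stem cells (ESCs), an established line, in 24 libraries that form 8 groups of 3. The question the design addresses is which genes depend on HAR123, a human accelerated region that acts as an enhancer and lies in an intron of SMG6. hHAR123 cells are unedited H9 cells. HAR123-KO cells had HAR123 removed from both alleles by CRISPR-Cas9, and cHAR123 and mHAR123 cells had the human element exchanged for its chimpanzee or mouse ortholog. Each genotype was sampled as undifferentiated ESCs, with no treatment, and as neuroectoderm (ECTO) after 5 days of culture with Noggin (500 ng/ml) and SB431542 (10 μM). All neuroectoderm groups, hHAR123 included, thus received the same inhibitors of BMP and of Activin, Nodal and TGFβ signaling. Per the study's methods and results, a pair of independent clones of each genotype, hHAR123 included, supplied the RNA, so at least 1 clone supplied more than 1 of the 3 libraries in a group. The clone behind each library is not given in the sources used here. Nothing in the labels places the 3 libraries of a group in separate experiments, so p-values measure only the spread between these libraries, which may be technical.

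Neural crest cells arise at the border of the neural plate, leave the dorsal neural tube through an epithelial-to-mesenchymal transition, and give rise to peripheral neurons and glia, pigment cells and much of the facial skeleton. Border genes such as PAX3, PAX7, TFAP2A, MSX1 and ZIC1 act first, and the specifiers act after them. FOXD3 is a forkhead factor of premigratory crest that is also expressed in pluripotent stem cells. SOX8, SOX9 and SOX10 form the SOXE group of HMG-box factors, SNAI1 and SNAI2 are zinc-finger repressors of the epithelial state, TWIST1 is a bHLH factor of mesenchymal and cranial crest cells, ETS1 is an ETS-domain factor of cranial crest, and NGFR is the low-affinity neurotrophin receptor p75, a surface protein often used to isolate crest cells.

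FOXD3 had the largest change of the 9 genes in neuroectoderm without HAR123, and it is the only one of them with an entry in the RefSeq promoter table used here (GRCh38.p14). Its promoter is shown because it is the sequence at the start of that gene. The window runs from 250 bases before the start of the gene to 50 bases after it, on the plus strand (chr1:63322317-63322616).
FOXD3 promoter: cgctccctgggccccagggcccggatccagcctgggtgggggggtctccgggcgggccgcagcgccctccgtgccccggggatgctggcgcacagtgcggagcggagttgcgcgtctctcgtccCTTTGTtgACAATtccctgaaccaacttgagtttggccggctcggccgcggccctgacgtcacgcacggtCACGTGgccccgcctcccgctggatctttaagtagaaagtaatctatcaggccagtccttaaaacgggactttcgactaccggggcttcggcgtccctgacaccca
The capitals mark, from the left, CTTTGT (the SOX-type word ACAAAG read on the other strand, 126 to 121 bases before the start), ACAAT (118 to 114 bases before) and CACGTG (56 to 51 bases before). On both strands, ACAAAG occurred in 16.1% and ACAAT in 27.4% of the 35116 promoters of this length, while CACGTG, which is also a match to the looser E-box CANNTG (68.7% of promoters), occurred in 7.26%. The window also held TGACGTCA, found in 1.85% of promoters, and GGAA, found in 95.5%. The E-box variant CAGGTG, the TFAP2-type word GCCNNNGGC, the forkhead word GTAAACA and the SMAD word CAGACA had no match in the window. These matches describe letters in the window and not bound sites. The other members, SOX8, SOX9, SOX10, SNAI1, SNAI2, TWIST1, ETS1 and NGFR, had no entry in the promoter table.

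The genes lie on 8 chromosomes, and only SOX9 and NGFR share chromosome 17 with SMG6 (chr17:2059839-2303785). In GRCh38, NGFR (ENSG00000064300) lies at chr17:49495293-49515008, 47.2 Mb past the end of SMG6, and SOX9 (ENSG00000125398) at chr17:72121020-72126416, 69.8 Mb past it. FOXD3 (ENSG00000187140) is at chr1:63322567-63325128, ETS1 (ENSG00000134954) at chr11:128458761-128587558, SOX10 (ENSG00000100146) at chr22:37970686-37987422 and SOX8 (ENSG00000005513) at chr16:981770-986979. SNAI1 (ENSG00000124216) is at chr20:49982980-49988886, SNAI2 (ENSG00000019549) at chr8:48917598-48921740 and TWIST1 (ENSG00000122691) at chr7:19020991-19117636. The deleted element is intronic and has no row of its own, so the counts do not check the edit itself.

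Total counts per library ranged from 21022748 to 35198684. Levels are given in CPM, the count of a gene divided by the total count of its library and multiplied by 1e6, and differences between groups come from edgeR's quasi-likelihood F test after filtering low genes and TMM scaling, with Benjamini-Hochberg adjustment over all genes tested. A gene is called changed at an adjusted p under 0.01 with a log2 fold change beyond 1 in either direction. Errors of log2 fold changes are standard errors (SE), each the size of the change divided by the square root of the F statistic. For a large change from few counts such an SE is too small and can fall below the counting error. The neuroectoderm columns of the replacement genotypes need care. The base means of genes listed for cHAR123 neuroectoderm in the study's supplement matched, within 0.1%, the columns labelled mHAR123 for 117 of 117 genes, and those listed for mHAR123 matched the columns labelled cHAR123 for 114 of 114. At the ESC stage, all 87 and all 143 listed genes matched the columns of their own label. Which naming is right cannot be told apart with the data used here, so "cHAR123 neuroectoderm" and "mHAR123 neuroectoderm" below mean the libraries that carry those labels. If the labels are crossed, their values exchange places. Comparisons of HAR123-KO with hHAR123, and all comparisons among ESC groups, do not involve these columns.

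Most markers of the labelled stages were present as labelled. The summed level of 6 pluripotency genes ranged from 2274 to 2437 CPM over the 12 ESC libraries and from 124 to 161 CPM over the 12 neuroectoderm libraries. That of 7 neuroectoderm genes (PAX6, SOX1, SIX3, LHX2, OTX2, RAX and HESX1) ranged from 29.5 to 42.8 CPM in ESCs and from 511 to 1125 CPM in neuroectoderm. HESX1 went the other way and was called lower in neuroectoderm in all 4 genotypes, at 1.43 CPM against 3.84 CPM in hHAR123. Within neuroectoderm the HAR123-KO libraries were the low ones, at 511 to 520 CPM against 1047 to 1071 CPM in hHAR123. In bulk RNA, a change in the share of cells of a type and a change in RNA per cell cannot be told apart, and this holds for every value below.

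In neuroectoderm without HAR123, 7 of the 8 specifiers tested were called higher than in hHAR123 and none lower, where 4.92% of all genes tested were called higher, 4.52% lower and 9.45% in either direction. FOXD3 rose 77.4-fold, SNAI2 31.9-fold, ETS1 29.6-fold, SOX10 28.5-fold, NGFR 7.63-fold, SOX8 3.49-fold and SOX9 2.12-fold. SNAI1 was not called, and TWIST1 was too low to test. The median log2 fold change of the 8 genes was 3.88, against 0.00 over all genes tested.

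FOXD3 stood at 2.28, 2.69 and 2.52 CPM in the hHAR123 neuroectoderm libraries and at 188, 188 and 187 CPM in those of HAR123-KO. The groups were far apart. The log2 fold change was 6.27 ± 0.06 (SE, adjusted p = 1.14e-53, n = 3 and 3, edgeR), which ranked 5 among the increases of all 21362 genes tested. FOXD3 had 48, 65 and 59 counts in the hHAR123 libraries, so this SE is smaller than the counting error. ETS1 read 7.52, 8.02 and 7.13 CPM in hHAR123 and 211, 218 and 219 CPM in HAR123-KO, and its log2 fold change was 4.89 ± 0.05 (edgeR adjusted p = 9.99e-53). Both genes were thus low in unedited neuroectoderm and far higher without HAR123.

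Of the SOXE genes, SOX10, which marks premigratory and migrating crest and later its glial and pigment lineages, rose most. It read 11.7, 11.7 and 12.3 CPM in hHAR123 and 329, 323 and 329 CPM in HAR123-KO, which gave a log2 fold change of 4.83 ± 0.05 (edgeR adjusted p = 4.98e-55). SOX9, which also acts in neural stem cells and cartilage, was already abundant in hHAR123, at 95.7, 96.8 and 92.8 CPM. In HAR123-KO it read 198, 193 and 192 CPM, and its log2 fold change of 1.08 ± 0.04 (edgeR adjusted p = 1.74e-31) was just beyond the fold cutoff. SOX8 read 7.52, 7.48 and 8.07 CPM in hHAR123 and 27.1, 24.8 and 26.0 CPM in HAR123-KO, with a log2 fold change of 1.81 ± 0.08 (edgeR adjusted p = 5.06e-26). All 3 SOXE genes were therefore higher without HAR123, by amounts that differed widely among them. Their groups did not overlap, nor did those of FOXD3, ETS1, SNAI2 and NGFR, where 26.4% of all genes tested had all 3 HAR123-KO libraries above all 3 of hHAR123.

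The SNAI pair parted. SNAI2, the SNAI gene most closely tied to crest cells, read 2.09, 2.48 and 1.88 CPM in hHAR123 and 65.7, 66.3 and 67.4 CPM in HAR123-KO. Its log2 fold change was 4.99 ± 0.08 (edgeR adjusted p = 2.31e-44). With 44, 60 and 44 counts of SNAI2 in the hHAR123 libraries, this SE is also smaller than the counting error. SNAI1, which acts in mesoderm formation as well as in crest, read 5.57, 6.12 and 5.25 CPM in hHAR123 and 5.56, 4.41 and 4.09 CPM in HAR123-KO. These ranges overlapped, and the log2 fold change was -0.22, with a 95% interval of -0.47 to 0.03 (edgeR adjusted p = 0.141). NGFR, the receptor, read 41.7, 45.1 and 43.0 CPM in hHAR123 and 323, 321 and 312 CPM in HAR123-KO, with a log2 fold change of 2.93 ± 0.04 (edgeR adjusted p = 4.63e-49).

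TWIST1 remained near the limit of detection in every library. It had 1 to 15 counts, that is 0.03 to 0.51 CPM, and did not pass the filter on low counts in any comparison. Its counts were 2, 2 and 1 in hHAR123 neuroectoderm and 1, 3 and 10 in HAR123-KO neuroectoderm, a ratio of 2.68 with an exact 95% counting interval of 0.91 to 9.51, so a difference between these groups was not detectable at this depth.

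**Figure D1:**
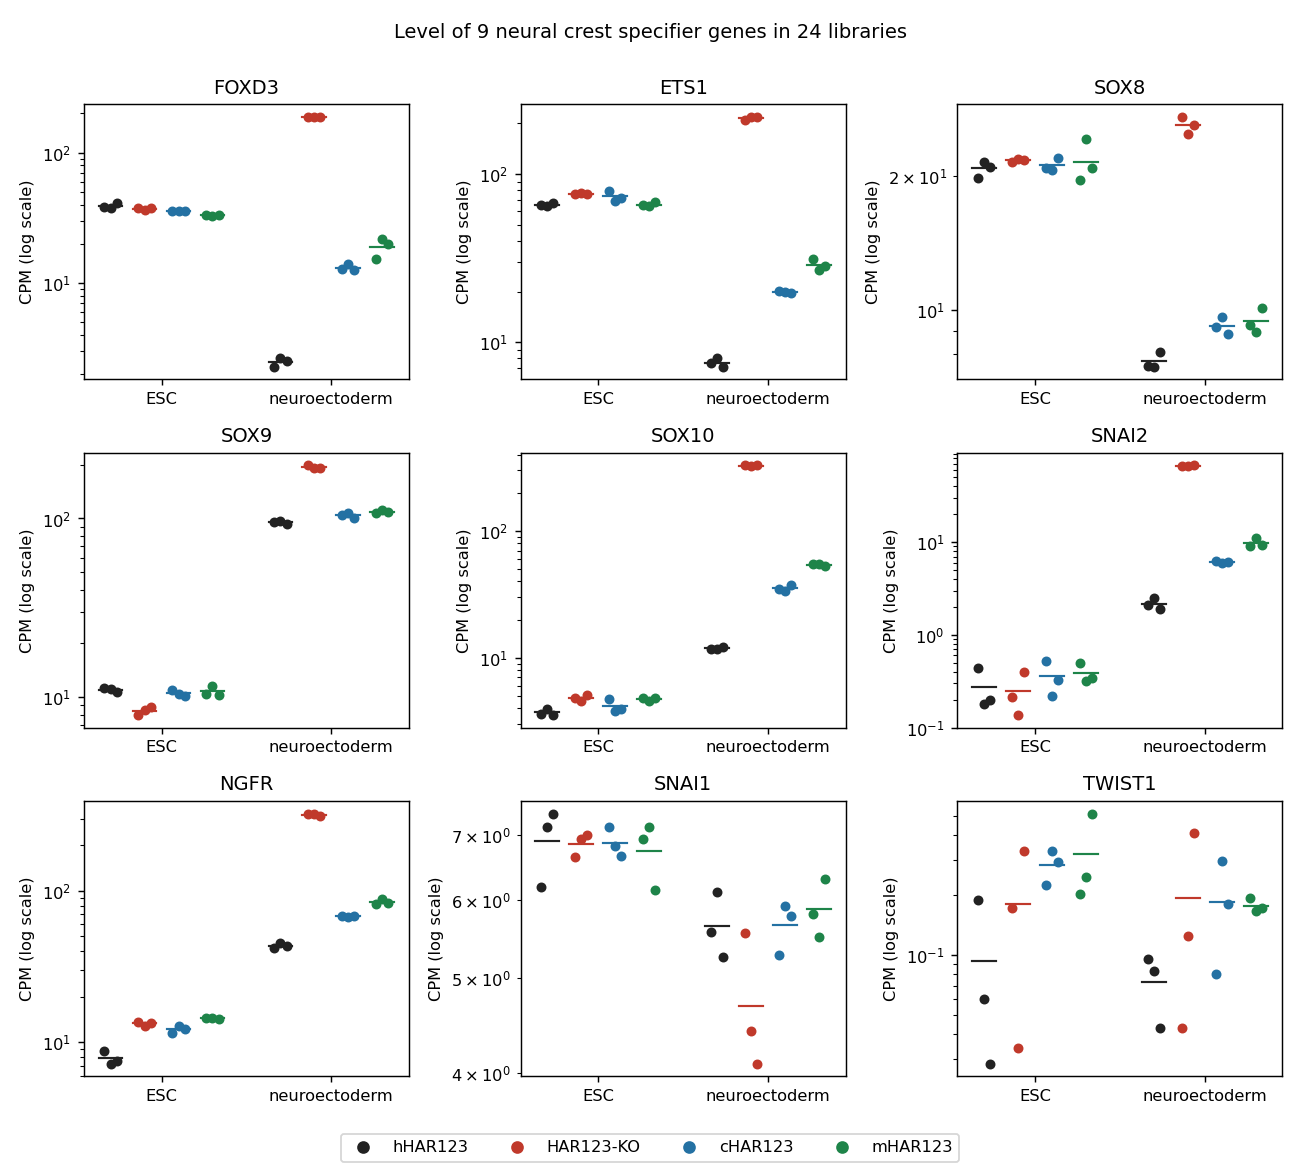
CPM on a log axis for each of the 9 genes in all 24 libraries, by stage and genotype, with a point per library and a line at the group mean (n = 3). FOXD3, ETS1, SOX10, SNAI2 and NGFR have their highest points in HAR123-KO neuroectoderm, with cHAR123 and mHAR123 neuroectoderm between it and hHAR123; SNAI1 and TWIST1 show no such order, and the TWIST1 points stand for 1 to 15 counts.

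Scaled by exon length, so that genes can be compared with each other, the 9 genes summed to 45.3 CPM per kb in hHAR123 neuroectoderm and 338 CPM per kb in HAR123-KO neuroectoderm. SOX9 made up 53.4% of that sum in hHAR123, NGFR 23.1%, SOX10 6.34% and FOXD3 2.15%. In HAR123-KO the sum was spread over SOX10 (23.4%), NGFR (22.8%), FOXD3 (21.7%), SOX9 (14.6%), ETS1 (8.94%) and SNAI2 (6.00%). The make-up of the specifier set therefore differed between the genotypes as well as its total. SNAI1 supplied 7.31% of the sum in hHAR123 and 0.81% in HAR123-KO.

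**Figure D2:**
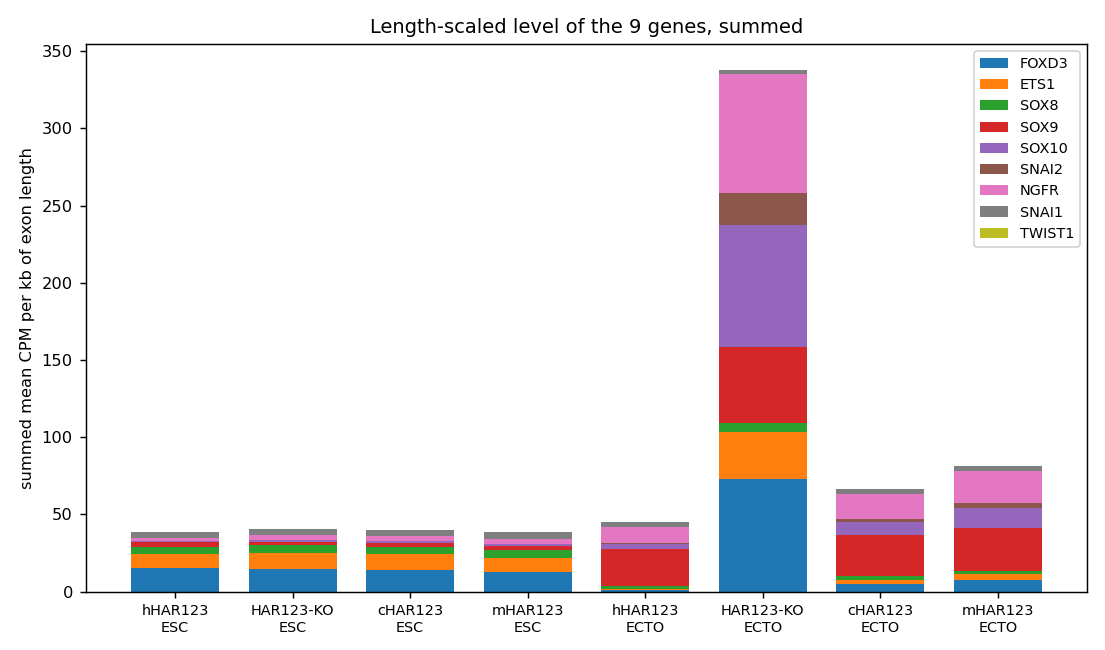
Mean CPM per kb of exon length of the 9 genes, stacked for each of the 8 groups (n = 3 libraries each). The 4 ESC groups reach 38.6 to 40.7 CPM per kb in all, hHAR123 neuroectoderm 45.3, the libraries labelled cHAR123 66.7 and mHAR123 81.4, and HAR123-KO neuroectoderm 338, where SOX10, NGFR and FOXD3 are the widest bands.

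Replacing human HAR123 with an ortholog was followed by smaller rises of the same kind. In cHAR123 neuroectoderm, 4 of 8 tested specifiers were called higher than in hHAR123 (0.522% of all genes tested were called higher and 0.978% in either direction), namely FOXD3, SOX10, SNAI2 and ETS1. In mHAR123 neuroectoderm, 5 of 8 were called higher (0.603% of all genes, and 1.03% in either direction), the same 4 and NGFR. None was called lower in either genotype. Both comparisons use the same hHAR123 libraries, as does the one with HAR123-KO.

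FOXD3 read 12.8, 13.9 and 12.6 CPM in the libraries labelled cHAR123 and 15.2, 21.7 and 19.9 CPM in those labelled mHAR123. Its log2 fold change against hHAR123 was 2.40 ± 0.12 (edgeR adjusted p = 2.13e-20) in cHAR123, rank 4 among the increases of 21275 genes. In mHAR123 it was 2.95 ± 0.13 (edgeR adjusted p = 9.61e-21), rank 1 among 21220 genes. The mHAR123 libraries scattered more than any other neuroectoderm group for this gene, and all 3 lay above the 3 cHAR123 libraries.

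SOX10 read 34.8, 33.8 and 37.5 CPM in cHAR123 and 54.5, 54.7 and 53.4 CPM in mHAR123, with log2 fold changes of 1.59 ± 0.07 and 2.23 ± 0.06 against hHAR123 (edgeR adjusted p = 4.12e-22 and 4.53e-27). SNAI2 read 6.28, 5.92 and 6.05 CPM in cHAR123 and 9.20, 11 and 9.30 CPM in mHAR123, with log2 fold changes of 1.51 ± 0.14 and 2.23 ± 0.13 (edgeR adjusted p = 3.93e-11 and 1.84e-16). ETS1 read 20.2, 19.8 and 19.5 CPM in cHAR123 and 31.4, 27.0 and 28.5 CPM in mHAR123, with log2 fold changes of 1.41 ± 0.08 and 1.98 ± 0.08 (edgeR adjusted p = 1.73e-17 and 1.02e-21). In each of these 3 genes the groups of hHAR123, cHAR123, mHAR123 and HAR123-KO neuroectoderm did not overlap and stood in that order from low to high. Over all genes tested, 14.9% had every cHAR123 library and 14.7% every mHAR123 library above every hHAR123 library.

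NGFR read 68.4, 67.3 and 68.4 CPM in cHAR123 and 82.5, 88.4 and 83.5 CPM in mHAR123. The log2 fold change was 0.67 ± 0.05 in cHAR123 (edgeR adjusted p = 2.31e-15), short of the fold cutoff. It was 1.01 ± 0.05 in mHAR123 (edgeR adjusted p = 1.02e-19), and this call did not hold without hHAR123 replicate 1 (0.98) or without mHAR123 replicate 2 (0.98). SOX9 differed little, at 101 to 107 CPM in cHAR123 (log2 fold change 0.14 ± 0.04, edgeR adjusted p = 0.00399) and 107 to 111 CPM in mHAR123 (0.24 ± 0.04, edgeR adjusted p = 1.18e-05), against 92.8 to 96.8 CPM in hHAR123. SOX8 had log2 fold changes of 0.28 in cHAR123 (95% interval 0.09 to 0.47, edgeR adjusted p = 0.0379) and 0.34 in mHAR123 (0.15 to 0.53, edgeR adjusted p = 0.00979). For SNAI1 the values were 0.01 (95% interval -0.21 to 0.24) and 0.10 (-0.13 to 0.33), with overlapping libraries.

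**Figure D3:**
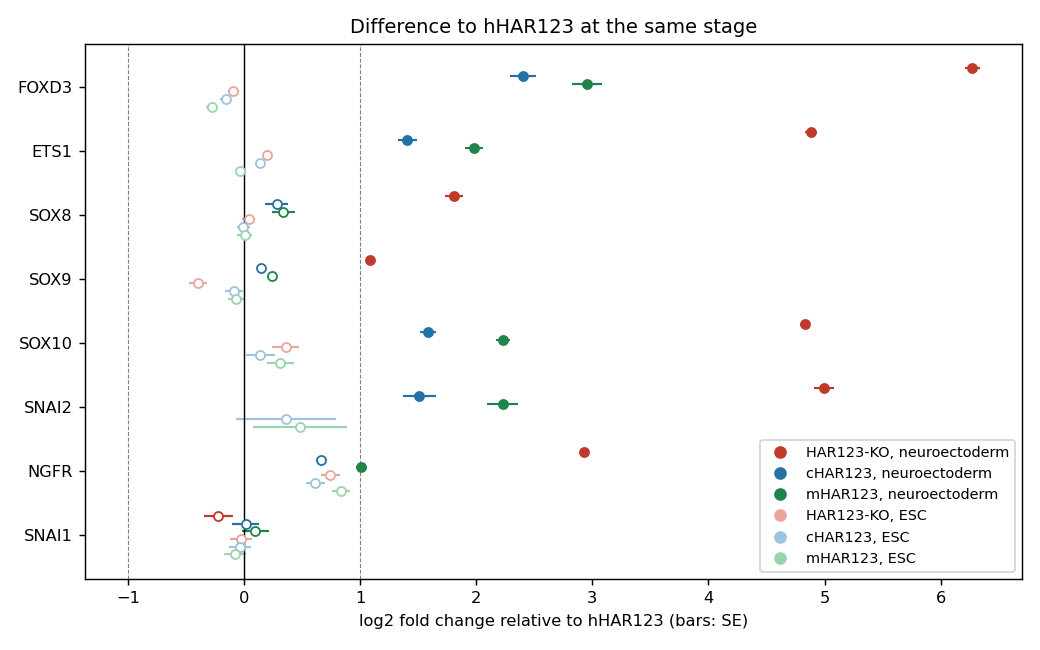
log2 fold change of HAR123-KO, cHAR123 and mHAR123 against hHAR123 at the same stage for the 8 tested specifiers, with bars for the SE, dark colours for neuroectoderm, pale colours for ESCs, filled points for called differences and dashed lines at the fold cutoff. In neuroectoderm HAR123-KO reaches 6.27 for FOXD3 and the replacement genotypes 2.40 and 2.95, while all ESC points lie between -0.40 and 0.83 and are open.

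Against HAR123-KO neuroectoderm itself, 6 of 8 tested specifiers were called lower in cHAR123 (3.91% of all genes tested were called lower and 7.61% in either direction) and 6 of 8 in mHAR123 (3.78% and 7.33%). FOXD3 was lower by a log2 fold change of -3.85 ± 0.04 in cHAR123 and -3.30 ± 0.05 in mHAR123, and SOX10 by -3.22 ± 0.03 and -2.58 ± 0.03. ETS1 differed by -3.46 and -2.88, SNAI2 by -3.46 and -2.74, NGFR by -2.24 and -1.90, and SOX8 by -1.50 and -1.44. SOX9 was lower by less than the fold cutoff in both, at -0.91 ± 0.03 and -0.82 ± 0.03 (edgeR adjusted p = 1.07e-37 and 7.57e-27). The replacement genotypes therefore lay between hHAR123 and HAR123-KO in each of FOXD3, SOX8, SOX9, SOX10, SNAI2, ETS1 and NGFR, nearer to hHAR123 on the CPM scale.

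Between the replacement genotypes no specifier was called, where 0.261% of all genes tested were. By edgeR 6 of the 8 had an unadjusted p under 0.05, and DESeq2 also called 0. The adjusted p passed 0.01 for 5 genes that were higher in the libraries labelled mHAR123 than in those labelled cHAR123, by log2 fold changes of 0.55 ± 0.09 for FOXD3, 0.64 ± 0.05 for SOX10, 0.72 ± 0.10 for SNAI2, 0.57 ± 0.06 for ETS1 and 0.34 ± 0.04 for NGFR (edgeR adjusted p = 8.3e-06, 6.92e-15, 9.44e-07, 1.42e-09 and 1.79e-09). These 5 did not overlap between the groups, where 9.04% of all genes tested had every mHAR123 library above every cHAR123 library, and their sign follows the column labels. SOX8 differed by 0.05 (95% interval -0.13 to 0.23) and SNAI1 by 0.08 (-0.14 to 0.30).

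In ESCs the genotypes differed little in these genes. No specifier was called in HAR123-KO (0 of 7 tested; 1.18% of all genes), cHAR123 (0 of 8; 0.85%) or mHAR123 (0 of 8; 1.23%) against hHAR123. By edgeR 4, 3 and 3 of them had an unadjusted p under 0.05, and DESeq2 called 0 in each. The highest of the 9 genes per exon length in hHAR123 ESCs were FOXD3, with 39.3% of their summed level, and ETS1, with 23.6%, and the sum was 38.9 CPM per kb. FOXD3 read 38.6, 37.4 and 41.4 CPM in hHAR123, 37.5, 36.3 and 38 CPM in HAR123-KO, 35.9, 35.6 and 36.0 CPM in cHAR123 and 33.1, 32.9 and 33.5 CPM in mHAR123. The last group lay below the others, by a log2 fold change of -0.28 ± 0.05 against hHAR123 (edgeR adjusted p = 5.04e-06).

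NGFR was the one specifier whose adjusted p passed 0.01 in all 3 edited ESC genotypes. It read 8.77, 7.23 and 7.56 CPM in hHAR123, 13.6, 12.9 and 13.5 CPM in HAR123-KO, 11.6, 12.9 and 12.3 CPM in cHAR123 and 14.5, 14.4 and 14.2 CPM in mHAR123. Every edited library was above every unedited one, by log2 fold changes of 0.74 ± 0.08, 0.61 ± 0.08 and 0.83 ± 0.08 (edgeR adjusted p = 1.55e-09, 3.87e-07 and 7.65e-12), all short of the fold cutoff and all against the same 3 hHAR123 libraries. SOX9 was lower in HAR123-KO ESCs (log2 fold change -0.40 ± 0.08, edgeR adjusted p = 0.000223), with 7.93, 8.47 and 8.79 CPM against 11.2, 11.1 and 10.6 CPM. ETS1 was higher there (0.20 ± 0.03, edgeR adjusted p = 3.73e-05), with 75.6 to 77.2 CPM against 65.0 to 66.9 CPM. SNAI2 had 4 to 17 counts per ESC library and passed the filter only in the cHAR123 and mHAR123 comparisons.

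From ESCs to neuroectoderm, the specifiers of hHAR123 cells split. SOX9, SNAI2, NGFR and SOX10 rose, by log2 fold changes of 2.83 ± 0.05, 2.69 ± 0.30, 2.17 ± 0.07 and 1.39 ± 0.10, while FOXD3, ETS1 and SOX8 fell, by 4.26 ± 0.09, 3.41 ± 0.06 and 1.72 ± 0.08 on the log2 scale. This made 7 of 8 called, where 45.9% of all genes tested were called, 24.6% higher and 21.2% lower. SNAI2, with few counts in ESCs, had the largest edgeR adjusted p of the 7 (1.44e-10).

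In HAR123-KO cells none of the genes that fell in hHAR123 was called lower. FOXD3 went from 37.3 ± 0.9 CPM (SD, n = 3) in ESCs to 188 ± 0.3 CPM in neuroectoderm, a rise of 2.13 ± 0.04 (SE) on the log2 scale (edgeR adjusted p = 5.17e-52), and ETS1 from 76.2 ± 0.9 to 216 ± 4.3 CPM, a rise of 1.30 ± 0.03 (edgeR adjusted p = 2.07e-43). SOX8 was at 21.5 to 21.8 CPM in ESCs and 24.8 to 27.1 CPM in neuroectoderm, which after TMM scaling was a log2 fold change of 0.06 (95% interval -0.06 to 0.18, edgeR adjusted p = 0.339). SNAI2 had only 5, 4 and 13 counts in HAR123-KO ESCs, so the SE of its change is smaller than the counting error. SNAI2, SOX10, NGFR and SOX9 rose by 7.79 ± 0.12, 5.88 ± 0.05, 4.38 ± 0.04 and 4.32 ± 0.05. Thus 6 of 8 were called higher and none lower, where 22% of all genes tested were called higher, 19.1% lower and 41.1% in either direction.

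The cHAR123 and mHAR123 cells kept the directions of hHAR123. In cHAR123, SOX9, SNAI2, SOX10 and NGFR were called higher in neuroectoderm and ETS1, FOXD3 and SOX8 lower (42.7% of all genes tested were called). In mHAR123 the same 4 were called higher, and ETS1 and SOX8 lower (41.9% of all genes). FOXD3 fell by 1.65 ± 0.06 in cHAR123 and ETS1 by 2.10 ± 0.05, each on the log2 scale. In mHAR123 these falls were 0.98 ± 0.07, just short of the fold cutoff, and 1.35 ± 0.05. With the neuroectoderm columns of the replacement genotypes exchanged, the falls of FOXD3 were 1.10 in cHAR123 and 1.54 in mHAR123. SNAI1 was lower in neuroectoderm in all 4 genotypes, by less than the fold cutoff: its log2 fold changes were -0.58 in hHAR123, -0.76 in HAR123-KO, -0.49 in cHAR123 and -0.37 in mHAR123 (edgeR adjusted p from 4.13e-08 to 0.00164).

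**Figure D4:**
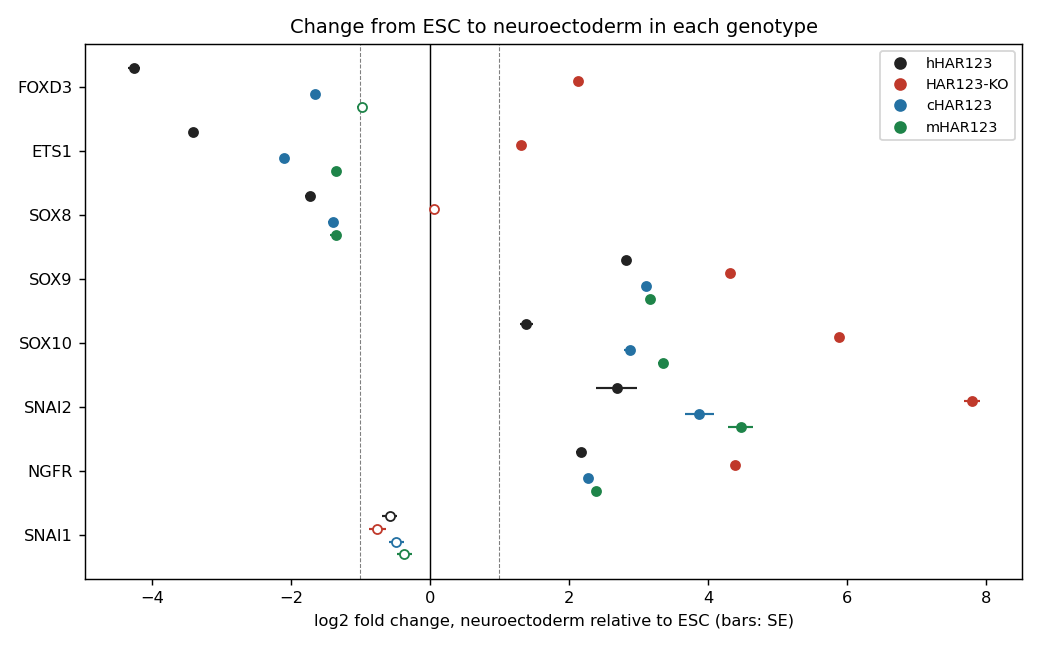
log2 fold change from ESC to neuroectoderm in each genotype for the 8 tested specifiers, with bars for the SE, filled points for called changes and dashed lines at the fold cutoff. FOXD3 and ETS1 lie left of 0 in hHAR123, cHAR123 and mHAR123 and right of it in HAR123-KO (2.13 and 1.30); SOX9, SOX10, SNAI2 and NGFR lie right of 0 in all 4 genotypes, and SNAI1 left of it in all 4.

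An interaction term over the 12 libraries of each edited genotype and hHAR123 compared the difference to hHAR123 in neuroectoderm with that in ESCs. For HAR123-KO, 7 of 8 tested specifiers were called (7.87% of all genes), from 1.47 ± 0.08 for SOX9 to 6.36 ± 0.09 for FOXD3 on the log2 scale, all with a larger difference in neuroectoderm. For cHAR123 3 were called (0.797% of all genes): FOXD3 (2.57 ± 0.12), SOX10 (1.46 ± 0.14) and ETS1 (1.28 ± 0.09). For mHAR123 4 were called (0.967% of all genes): FOXD3 (3.25 ± 0.14), ETS1 (2.04 ± 0.08), SOX10 (1.94 ± 0.12) and SNAI2 (1.77 ± 0.44). The SNAI2 call rested on the few counts of this gene in ESCs and was lost without hHAR123 ESC replicate 1 (1.26, edgeR adjusted p = 0.0997). For NGFR the interaction was 0.06 in cHAR123 (95% interval -0.12 to 0.24) and 0.20 in mHAR123 (0.02 to 0.37, edgeR adjusted p = 0.121).

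In neuroectoderm 6 of the 8 tested specifiers (FOXD3, SOX9, SOX10, SNAI2, ETS1 and NGFR) stood in the order HAR123-KO, mHAR123, cHAR123 and hHAR123 from high to low with each group apart from the next, as did 1.02% of all genes tested. Over the 8 groups the place of the ESC levels differed between the genes. For SOX10, SNAI2 and NGFR the order began with HAR123-KO, mHAR123, cHAR123 and hHAR123 neuroectoderm, each group apart from the next, and ended with the 4 ESC groups. SOX9 had the same order in neuroectoderm, with smaller steps, and HAR123-KO ESCs lay apart at its low end. For FOXD3, ETS1 and SOX8, HAR123-KO neuroectoderm was again highest, but the 4 ESC groups came next and the other 3 neuroectoderm groups last. Neighbouring groups that overlapped were hHAR123 and HAR123-KO ESCs for FOXD3, HAR123-KO and cHAR123 ESCs and mHAR123 and hHAR123 ESCs for ETS1, and all neighbouring ESC groups as well as mHAR123 and cHAR123 neuroectoderm for SOX8. For SNAI1 and TWIST1 every group overlapped its neighbour in the order.

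The same split showed in the likeness of the profiles, measured as Pearson's r of log2 CPM over the 24 libraries and given as a description, since the libraries share stages and genotypes. FOXD3 and ETS1 had r = 0.98 with each other, and SOX8 had r = 0.92 with ETS1. SOX10, SNAI2 and NGFR had r = 0.98 with each other, and r with SOX9 from 0.89 to 0.93, while FOXD3 and NGFR had r = 0.12. Among 19756 genes, the 3 most like FOXD3 were GYPC (0.99), ETS1 (0.98) and ADCYAP1R1 (0.98). Those most like SOX10 were RELN (0.99), KANK4 (0.99) and the integrin subunit gene ITGA4 (0.99), and those most like SNAI2 were ITGA4 (0.99), PDE1B (0.99) and NOL4L (0.99). ETS1 was closest to ERBB3 (0.99), MTSS2 (0.99) and FBLN1 (0.99), NGFR to LMX1B (0.99), MSX1 (0.99) and COLEC12 (0.99), and SOX8 to KIF21B (0.99), TRPS1 (0.99) and STAT6 (0.99). SOX9 was closest to PCBP4, PKNOX2 and BBX (each 0.997), and SNAI1 to UBE4B, GLDC and DPEP1 (0.96, 0.96 and 0.95).

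Several of these genes share exon bases with a gene on the other strand, and whether the counts kept the strands apart is not stated in the sources used here. FOXD3 and the antisense gene FOXD3-AS1 share 355 bases, 13.9% of the exon bases of FOXD3, and both were higher without HAR123. FOXD3-AS1 stood at 45.4 CPM in hHAR123 ESCs, 0.82 CPM in hHAR123 neuroectoderm and 36.2 CPM in HAR123-KO neuroectoderm (log2 fold change 5.51 ± 0.11, edgeR adjusted p = 3.72e-40). From ESC to neuroectoderm in HAR123-KO cells FOXD3-AS1 fell by 0.53 on the log2 scale while FOXD3 rose by 2.13, so the levels of the pair were not in 1 fixed ratio. SOX10 shares 89 bases with POLR2F, a subunit gene of RNA polymerase, whose log2 fold change in HAR123-KO neuroectoderm was 0.46 ± 0.06 against 4.83 for SOX10. NGFR shares 924 bases with ENSG00000279036 and 202 with NGFR-AS1, and both were low in every group. In neuroectoderm, ENSG00000279036 stood at 0.20 CPM in hHAR123, 0.24 CPM in HAR123-KO, 0.25 CPM in cHAR123 and 0.33 CPM in mHAR123, and NGFR-AS1 at 0.07, 0.17, 0.08 and 0.12 CPM in the same order. In ESCs neither exceeded 0.08 CPM. The genes that overlap SOX9 and ETS1 share none of their exon bases.

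Border genes, which act before the specifiers, were also higher in HAR123-KO neuroectoderm. Of 10 genes that specify the neural plate border, 9 were tested, 8 were called higher and DLX5 was called lower (log2 fold change -2.48 ± 0.38), against 9.45% of all genes called. PAX7 (6.09 ± 0.07), TFAP2B (5.87 ± 0.05), TFAP2C (4.38 ± 0.07) and MSX1 (3.61 ± 0.08) rose most, and the median of the 9 was 3.55 against 0.00 over all genes. PAX7 went from 1.89 CPM in hHAR123 to 124 CPM in HAR123-KO. In cHAR123 7 and in mHAR123 4 of the 9 tested border genes were called higher (0.522% and 0.603% of all genes), and none lower.

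Of 19 genes that act in crest migration or in its glial and pigment lineages, 18 were tested in HAR123-KO neuroectoderm, 12 were called higher and none lower, with a median log2 fold change of 2.30, where 4.92% of all genes tested were called higher. S100B, a calcium-binding protein of glial cells, stood at 3.97 CPM against 0.09 CPM in hHAR123 (log2 fold change 5.47 ± 0.34). No hHAR123 neuroectoderm library held more than 5 counts of S100B, so this SE is smaller than the counting error. ERBB3, the neuregulin receptor of crest and Schwann cells, stood at 192 CPM against 14.5 CPM (3.77 ± 0.05). In ESCs ERBB3 was already abundant, at a mean of 81.9 CPM in hHAR123 and 82.1 CPM in HAR123-KO. MITF, the regulator of pigment cells, had no count in the hHAR123 libraries and 42, 42 and 31 counts in HAR123-KO, at least 12.2-fold higher when hHAR123 is set at 3 counts per library. MITF was also present in ESCs, at 0.92 to 1.14 CPM in the hHAR123 libraries and a mean of 1.65 CPM in HAR123-KO. Its mean of 1.61 CPM in HAR123-KO neuroectoderm was thus near the level of undifferentiated HAR123-KO cells. RXRG, a retinoid receptor, had 3, 3 and 3 counts in hHAR123 and 43, 64 and 68 in HAR123-KO, a ratio of 18.6 per total count with an exact 95% counting interval of 9.58 to 41.4. DCT, an enzyme of melanoblasts, was low in both groups and stood at 0.38 CPM against 0.53 CPM (log2 fold change -0.42 ± 0.40). In cHAR123 2 of 15 and in mHAR123 4 of 15 tested genes of this list were called higher (0.522% and 0.603% of all genes). None was called lower, and EDNRB, the endothelin receptor, was called higher in both.

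The genes of the transition from epithelium to mesenchyme moved less than SNAI2. Of 8 adhesion and transition genes, 1 was called higher, RHOB (1.65 ± 0.04), a small GTPase of delaminating crest, and none lower, where 9.45% of all genes tested were called in either direction. The adjusted p of the other 7 passed 0.01 with smaller changes of both signs, and their list had a median of -0.02. CDH1, the epithelial cadherin, had a log2 fold change of -0.73 ± 0.16 and CDH2, the neural cadherin, one of -0.53 ± 0.03. For VIM, the intermediate filament of mesenchyme, it was 0.71 ± 0.03. VIM was already higher in ESCs without HAR123, at 134.6 CPM against 53.6 CPM in hHAR123. Its interaction with stage was -0.60 ± 0.04 on the log2 scale, a smaller difference in neuroectoderm than in ESCs. Among 6 relatives of the specifiers, 5 were tested and 2 called higher: ETS2 (1.30 ± 0.06) and FOXD2, with 0, 0 and 1 counts in hHAR123 and 14, 11 and 11 in HAR123-KO, a ratio of 34.5 with a counting interval of 5.80 to 1398. TWIST2 stood at 0.86 CPM against 0.83 CPM and SNAI3, at 0.26 CPM against 0.34 CPM, was not tested.

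Of the 9 other genes of neurotrophin signaling listed, which include ligands and receptors, 8 were tested in HAR123-KO neuroectoderm and none was called. Over all genes tested, 9.45% were called in either direction. Of the 8, 7 had an unadjusted p under 0.05 in edgeR, DESeq2 called 0, and the median log2 fold change was -0.05. NTRK3, the receptor of NTF3, had a log2 fold change of -0.16 ± 0.07. SORT1, a co-receptor of NGFR, had one of -0.80 ± 0.04.

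Markers of the surrounding tissues also differed in HAR123-KO neuroectoderm, some higher and some lower, and their part in the values above was not tested. Of 6 dorsal neural tube genes, the region where crest cells arise, 5 were tested and all 5 called higher in HAR123-KO (4.92% of all genes): WNT1 (4.25 ± 0.06), WNT3A (4.03 ± 0.21), OLIG3 (3.05 ± 0.29), GDF7 (3.03 ± 0.07) and LMX1A. The summed level of the 6 genes was 34.2 to 36.8 CPM in the hHAR123 libraries, 246 to 252 CPM in HAR123-KO, 61.6 to 63.4 CPM in cHAR123 and 50.3 to 52.5 CPM in mHAR123. Of 7 neuroectoderm genes, 4 were called lower (4.52% of all genes), RAX (-4.10 ± 0.19), SIX3 (-2.30 ± 0.19), LHX2 (-1.97 ± 0.31) and SOX1 (-1.60 ± 0.05), which act in the anterior neural plate, eye field and neural progenitors. PAX6 stood at 228 CPM against 447 CPM, a log2 fold change of -0.92 ± 0.03, and OTX2 at 257 CPM against 510 CPM.

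Of 8 surface ectoderm and placode genes, 5 were tested, and edgeR called 2 higher and DESeq2 1, where 4.92% of all genes were called higher. GATA3 had 1, 2 and 2 counts in hHAR123 and 24, 29 and 27 in HAR123-KO, a ratio of 15.3 with a counting interval of 6.30 to 48.4. The keratin genes KRT5 and KRT14 had no count in either group, TP63 had 0 counts in hHAR123 and at most 4 in HAR123-KO, and the summed level of the list was 16.3 to 19.3 CPM in hHAR123 and 23.8 to 24.3 CPM in HAR123-KO. Of 8 mesoderm genes 2 were tested and MEOX1 (1.12 ± 0.28) was called higher by edgeR, while DESeq2 called 0, with TBXT at a mean of 0.06 CPM in hHAR123 and 0.01 CPM in HAR123-KO and a summed level of 3.47 to 3.80 CPM in hHAR123 against 3.51 to 4.41 CPM in HAR123-KO. None of 6 endoderm genes passed the filter, SOX17 had no count in either group, and their sum stayed at or below 0.41 CPM in both. Of 6 pluripotency genes, 5 were tested and ZFP42 (2.22 ± 0.09) was called higher, while POU5F1 stood at 10.4 CPM against 15.4 CPM in hHAR123 (-0.51 ± 0.08) and NANOG at 0.84 CPM against 1.26 CPM. These markers thus had changes of both signs, and their part in the FOXD3 values was not tested.

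**Figure D5:**
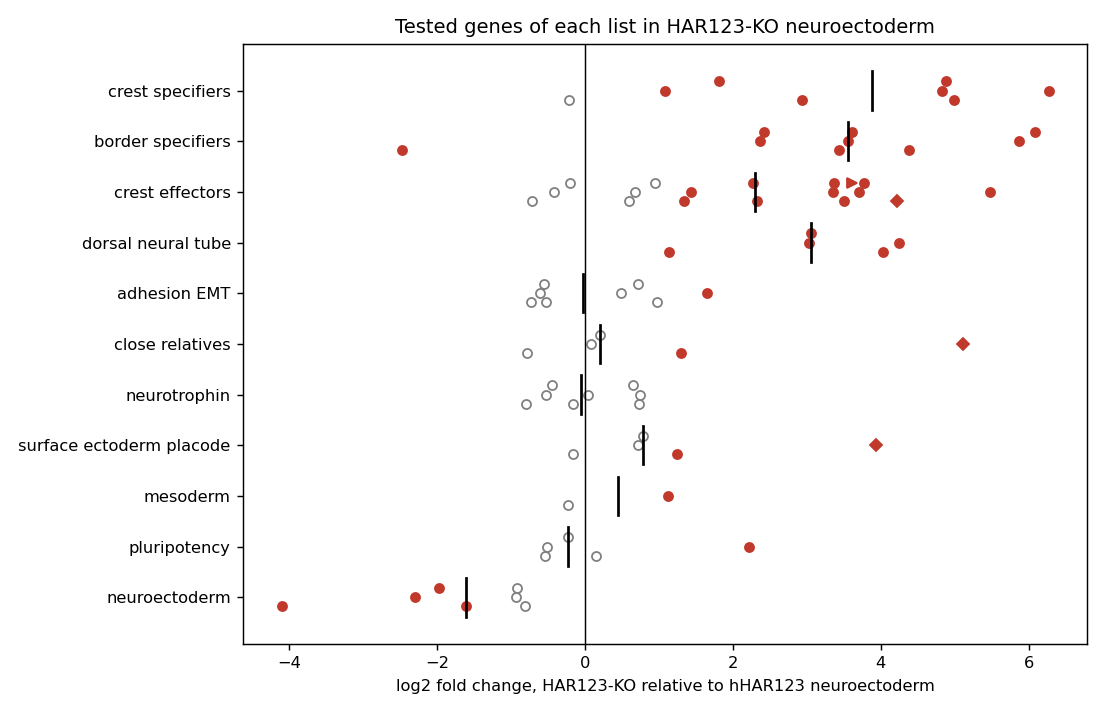
log2 fold change of each tested gene in HAR123-KO against hHAR123 neuroectoderm, by list, with filled points for called genes, open points for others, a triangle at the lower bound for MITF, diamonds at the count ratio for RXRG, FOXD2 and GATA3, and a black line at the median of the list. The medians of the specifiers (3.88), border specifiers (3.55), dorsal neural tube genes (3.05) and effectors (2.30) lie right of 0, that of the neuroectoderm genes (-1.60) left of it, and those of the adhesion genes (-0.02) and neurotrophin genes (-0.05) near 0.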

How the data were processed

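RNA was sequenced from H9 cells of 4 genotypes at 2 stages, with 3 libraries per group. Libraries were directional and depleted of ribosomal RNA. The authors aligned the paired reads with STAR 2.5.2b (GRCh38, Ensembl 106), and featureCounts gave the deposited raw counts, which carry no normalization. The strand setting is not given in the sources used here, so counts from both strands may be mixed where genes overlap. The entry of ANK2, broken in the table, was left out. Replicates differed by more than sampling noise (chi-square per degree of freedom 1.416 to 5.704). Each pair of groups was fitted alone in edgeR 4.0.16 (R 4.3.3) with filterByExpr, TMM and the quasi-likelihood F test; each SE was derived from the F statistic, and 95% intervals are normal. Calls used the study's thresholds, 0.01 for the adjusted p and 1 for the size of the log2 fold change. A floor of 3 counts per library was used for a bound against a group at 0, and count ratios have Clopper-Pearson intervals; both cover counting error only. The scripts were tested on simulated data. Columns of the study's own comparisons in its supplement were used only to check labels through base means. Alternatives were DESeq2 1.42.0, its size factors in edgeR, no filter, all 24 libraries in one fit, a replicate block and leaving out each library; exchanging the replacement columns was added after seeing the data. The named genes were the 9 members, up to 4 called genes with the largest changes per list, the 3 closest profiles per member and overlapping genes; CDH1, CDH2, VIM, DLX5, DCT, EDNRB, TWIST2, SNAI3, the neurotrophin genes, PAX6, OTX2, HESX1, the germ-layer markers and LMX1A were named after their values were seen. Members and lists were chosen with earlier results of these data known. Some genes of the lists are counted in them but not reported here by name.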

Additional observations from a re-analysis of the deposited data

Results flagged for a closer look

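These results stood out because the difference between an edited genotype and hHAR123 was not the same in ESCs and neuroectoderm, tested as an interaction in edgeR over 12 libraries; positive values on the log2 scale mean a larger difference in neuroectoderm. For HAR123-KO the interaction was 6.36 ± 0.09 (SE) for FOXD3, 5.08 ± 0.51 for SNAI2, 4.69 ± 0.06 for ETS1 and 4.47 ± 0.12 for SOX10. It was 2.18 ± 0.09 for NGFR, 1.76 ± 0.10 for SOX8 and 1.47 ± 0.08 for SOX9. For cHAR123 it was 2.57 ± 0.12 for FOXD3, 1.46 ± 0.14 for SOX10 and 1.28 ± 0.09 for ETS1. For mHAR123 it was 3.25 ± 0.14 for FOXD3, 2.04 ± 0.08 for ETS1, 1.94 ± 0.12 for SOX10 and 1.77 ± 0.44 for SNAI2. The adjusted p ranged from 1.29e-46 for FOXD3 in HAR123-KO to 0.00229 for SNAI2 in mHAR123. The neuroectoderm libraries of both replacement genotypes carry labels that the study's supplement crosses.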

How the results depend on the processing

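Of 1572 member values recomputed under the alternatives, 1541 kept their direction and their side of the threshold, and all 396 counts of members called stayed within 1.5 times. The reversals concerned values near 0 that were not called. For SOX8 in mHAR123 ESCs the log2 fold change was -0.0038 by DESeq2, -0.00671 with no filter, -0.0151 with all 24 libraries in one fit and -0.0812 to 0.0681 without single libraries. Leaving out single libraries also gave -0.0418 to 0.0149 for SOX8 and -0.104 to 0.0076 for SNAI1 in cHAR123 ESCs, -0.0908 to 0.0192 for SNAI1 in HAR123-KO ESCs, -0.0321 to 0.0849 for SNAI1 in cHAR123 neuroectoderm, -0.0014 to 0.0920 for SOX8 between mHAR123 and cHAR123 neuroectoderm and -0.0127 to 0.133 for the NGFR interaction in cHAR123. The fall of FOXD3 in mHAR123, short of the fold cutoff, passed it under DESeq2 (-1.03), its size factors (-1.01), no filter (-1.002) and all libraries in one fit (-1.004), and ranged from -1.09 to -0.83 without single libraries. With the replacement columns exchanged, an alternative chosen after seeing the data, the SNAI2 interaction was 1.89 and called in cHAR123 and 1.04 and not called in mHAR123, and the NGFR interaction in mHAR123 was -0.16. Same-numbered libraries did not deviate together: in 0 of 13 group pairs were all correlations over 0.1 (range -0.144 to 0.158). The replicate block left 7 specifiers called higher in HAR123-KO neuroectoderm, 4 in cHAR123 and 5 in mHAR123, and changed no call of a member. Over all genes DESeq2 called fewer than edgeR in several comparisons with hHAR123: 151 against 246 in HAR123-KO, 73 against 178 in cHAR123 and 120 against 259 in mHAR123 ESCs, and 115 against 208 in cHAR123 and 104 against 219 in mHAR123 neuroectoderm. It called 14 against 55 between the replacement genotypes and 119 against 186 and 152 against 229 in the interactions of cHAR123 and mHAR123. Depth limits TWIST1 everywhere and SNAI2 in ESCs.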
